A study of Rattus norvegicus with 20 samples.

Results

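The transcription factor Myc and the genes of ribosome production were followed in stretched rat alveolar epithelial cells. A list of 55 gene symbols was used: Myc, the polyamine enzymes Odc1 and Srm, and 52 genes whose products transcribe ribosomal DNA or process and assemble ribosomal RNA. The count table held 53 of them among its 17337 symbols, and no level of Rrp12 or Tsr1 was analysed here. Of the 53, 50 passed a filter on low counts, as did 8320 symbols in all. Rrn3 had 20 counts over all libraries, Nhp2 had 2 and Ebna1bp2 had 1, so these were not tested.

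Alveolar type II cells of Sprague-Dawley rats were cultured for 4 days on fibronectin-coated silastic membranes, where they form monolayers resembling type I cells, the thin cells that line most of the gas exchange surface. Each library was made from 4 monolayers of 1 animal that were pooled, and 5 animals gave 1 library to each of 4 groups. S_PI cells received 1 µM GSK2606414, an inhibitor of the endoplasmic reticulum stress kinase PERK, for 18 h and were then stretched for 6 h, cyclically, with a 25% change in surface area at 15 cycles per min. NS_PI cells received the same inhibitor without stretch, for 24 h by the treatment label and 18 h by the series text. S cells had 0.01% DMSO, the vehicle, for 18 h before the same stretch, and NS cells had DMSO for 24 h without stretch. The labels used here give no DMSO content for the inhibitor groups. The libraries were QuantSeq 3' end libraries, which yield about one fragment per transcript, so levels are given as CPM (a gene's share of the library's counts on a fixed scale) and were compared between genes without a length correction.

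Ribosome production starts in the nucleolus, where RNA polymerase I transcribes a long precursor RNA. Small nucleolar ribonucleoproteins (snoRNPs) modify this precursor, and the small and large subunits are cut from it and assembled by separate sets of factors before export. Myc is a basic helix-loop-helix factor known to bind the sequence CACGTG, called an E-box, with its partner Max, and many genes of nucleolar function are among its known targets. Growth, cell cycle entry and injury responses are known to raise Myc in many cell types.

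Gene counts per library ranged from 999209 (S of animal 4) to 3131541 (S of animal 2), and 3 counts, taken as the detection floor, corresponded to 1.07 to 3.05 CPM. Type I markers were present: Pdpn averaged 1662 CPM in S and 1997 CPM in NS, and Ager averaged 452 CPM in S and 510.4 CPM in NS, while Aqp5 averaged 1.90 CPM in S and 4.57 CPM in NS. Markers of other cells were present as well. The 12 fibroblast and smooth muscle markers summed to 3998 to 12525 CPM in S and 3279 to 7563 CPM in NS. With inhibitor, they summed to 4030 to 14392 CPM in S_PI and 3274 to 10732 CPM in NS_PI. Col1a1 made up most of this sum on average, with a mean of 6296 CPM in S and 3939 CPM in NS, followed by Acta2 at 1263 and 796 CPM. Col3a1 averaged 532 CPM in S and 442 CPM in NS, and Des averaged 71.1 and 49.5 CPM. Some other markers of this list were near the floor, such as Col1a2 at 2.04 CPM in S and 1.38 CPM in NS. The 16 leukocyte markers summed to 2107 to 14240.2 CPM in S and 1672 to 10645 CPM in NS, and to 2719 to 13310.3 CPM in S_PI and 1655 to 10141 CPM in NS_PI. On average most of this sum was Lyz2, with a mean of 5369 CPM in S and 4596 CPM in NS, which type II cells also express and which stands in the type II list too. The other 15 leukocyte markers averaged 2538 CPM in S and 1801 CPM in NS, and 2326 CPM in S_PI and 1674 CPM in NS_PI. Of the 13 leukocyte markers tested, 4 rose in S over NS and 6 in S_PI over NS_PI. Of the 13 type I markers tested, 4 fell and 1 rose in S over NS, and 7 fell and 2 rose in S_PI over NS_PI. The type II markers summed to a mean of 7001 CPM in S and 6540 CPM in NS, with Lyz2 included, and of 13 tested 1 rose in S over NS, while 1 rose and 1 fell in S_PI over NS_PI. Of 8 fibroblast and smooth muscle markers tested, 1 rose in S over NS, and 3 rose and 1 fell in S_PI over NS_PI. In S over NS, 30.8% of leukocyte, 38.5% of type I, 7.69% of type II and 12.5% of fibroblast markers were called, beside 24.9% of all tested genes. The same shares in S_PI over NS_PI were 46.2%, 69.2%, 15.4% and 50%, beside 30.5% of all tested genes. The airway secretory marker Scgb1a1 averaged 1327 CPM in S and 1360 CPM in NS, and 1261 CPM in S_PI and 1918 CPM in NS_PI. The mesothelial marker Msln averaged 310.5 CPM in S and 150.1 CPM in NS, where it rose, and 232 CPM in S_PI and 180 CPM in NS_PI. Of the 7 endothelial markers, Cdh5 and Cldn5 were at 0 counts in every library. Pecam1, Tek, Vwf and Kdr had 8, 11, 14 and 23 counts over all libraries, and Egfl7 averaged 11.4 CPM in S and 11.2 CPM in NS. The globin genes Hba1 and Hbb were at 0 counts in every library. In bulk libraries, fewer cells of a type and less RNA per cell cannot be told apart, and the part of these marker shifts in the results on ribosome genes was not tested.

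Stretch was accompanied by higher Myc and by higher levels of many nucleolar genes, with and without the inhibitor. In S over NS, 18 of the 50 tested members rose, 1 fell and 31 were not called, where 24.9% of all tested genes were called (12.5% higher and 12.4% lower). In S_PI over NS_PI, 23 members rose and 0 fell, where 30.5% of all tested genes were called (15.2% higher and 15.3% lower). The count of 18 was 9 without animal 2, 11 without animal 1 and 8 when only the S and NS libraries were fitted. The median fitted log2 change of the tested members was 0.37 in S over NS, beside -0.01 over all tested genes. The median was 0.49 in S_PI over NS_PI, beside -0.02. A call means an adjusted p below 0.05 in edgeR's quasi-likelihood test with Benjamini-Hochberg adjustment over all 8320 tested genes and with the animal as a block. All adjusted p-values below come from this test, and each fitted log2 change is given with its standard error (SE). Scaling by library size alone moved the median of all genes to -0.12 in both stretch comparisons, and the calls over all genes to 722 higher and 1425 lower in S over NS, against 1044 higher and 1031 lower with the main scaling. The same change of scaling gave 957 higher and 1677 lower in S_PI over NS_PI, against 1263 higher and 1271 lower. Without the animal block, 9 members rose and 0 fell in S over NS, the rises of Bop1, Ddx18, Ddx21, Fbl, Mybbp1a, Ncl, Nop14, Srm and Utp15 and the fall of Ltv1 being lost. In S_PI over NS_PI 15 rose without the block, Bop1, Imp4, Ncl, Noc2l, Nop14, Npm1, Polr1b and Rrp9 being lost. Upper-quartile scaling gave 854 higher and 1233 lower in S over NS, and 1030 higher and 1612 lower in S_PI over NS_PI. Among the members, 12 rose in S over NS with library size alone, the rises of Bop1, Fbl, Mybbp1a, Ncl, Nop14 and Srm being lost, and 13 with upper-quartile scaling, where the first 5 of these were lost. In S_PI over NS_PI, 20 rose with library size alone, without Bop1, Imp4 and Rrp9, and 21 with upper-quartile scaling, without Imp4 and Rrp9. Other settings added calls: Nop58 was called higher in S over NS under 5 of the 12 alternatives (adjusted p 0.0332 to 0.0468), among them DESeq2 and leaving out animal 2 or 4. In S_PI over NS_PI, Fbl was called with DESeq2 (adjusted p = 0.0475) and without animal 1 (0.00751), Dkc1 with only the groups compared (0.0307) and without animal 1 (0.0387), and Polr1e without animal 3 (0.0147). Srm and Utp20 were called there without animal 4, Rrs1 without animal 1 and Pes1 without animal 5 (adjusted p 0.0313 to 0.0424), and Pes1 was called in S over NS with DESeq2 or its size factors (adjusted p 0.0441 and 0.0461).

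**Figure D1:**
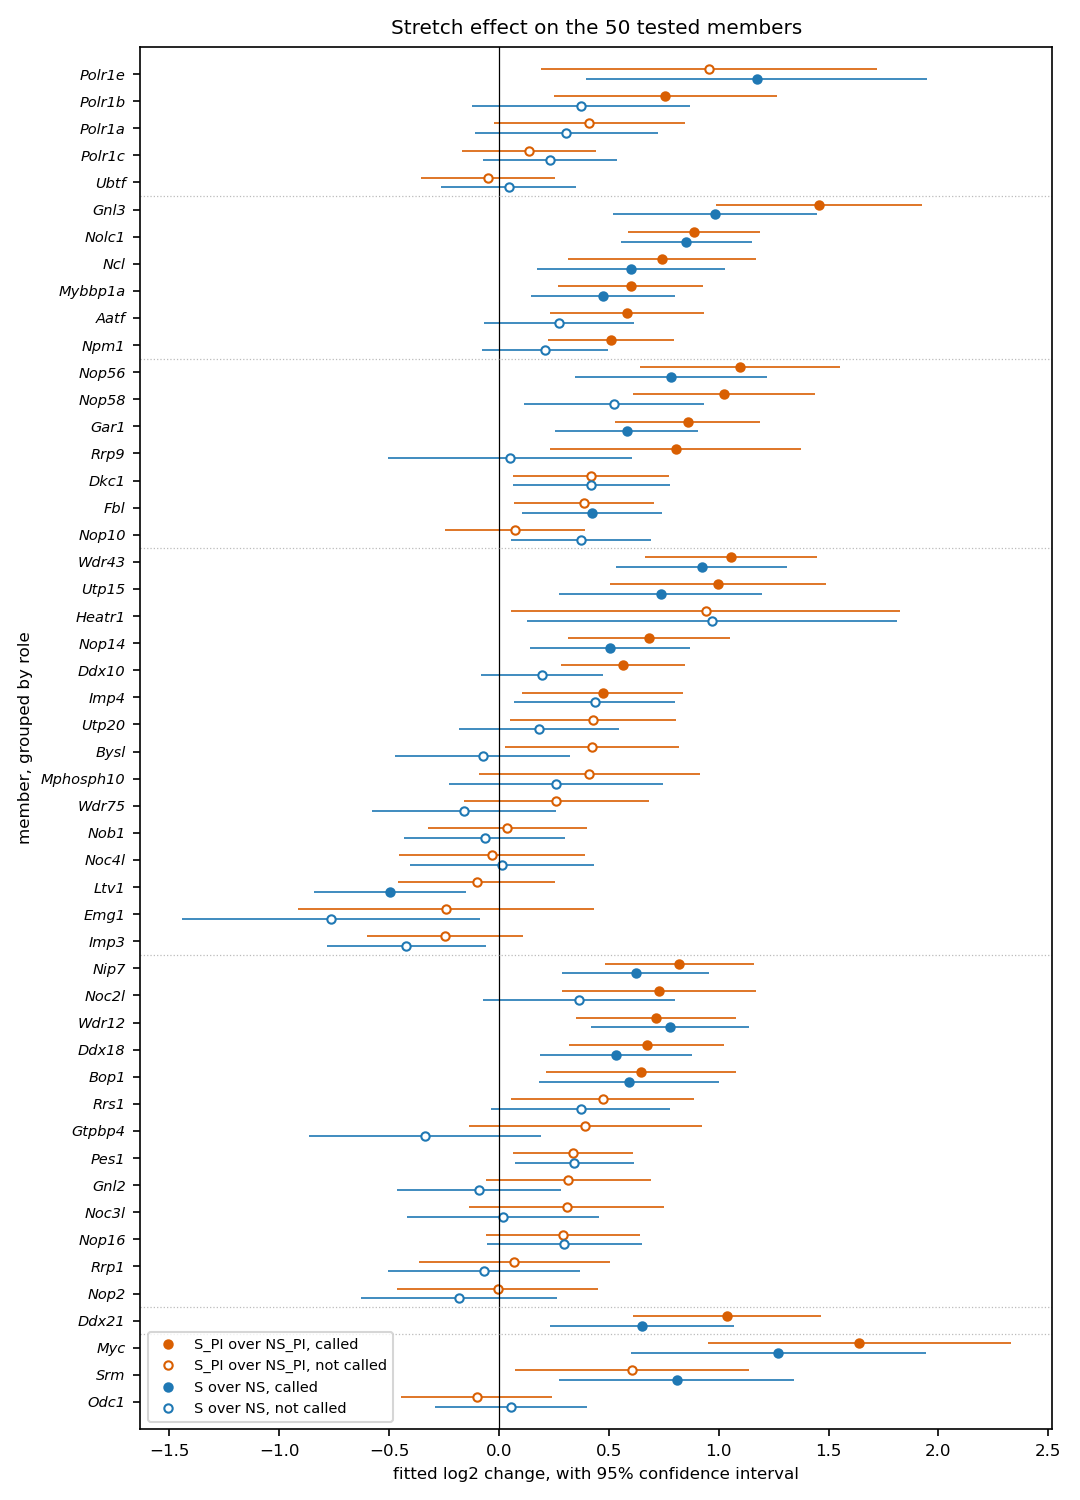
Fitted log2 change with stretch (x axis) for each of the 50 tested members (y axis, grouped by role), orange for S_PI over NS_PI and blue for S over NS. Bars are 95% confidence intervals, filled points were called at an adjusted p below 0.05, and filled points lie right of 0 except Ltv1 in S over NS.

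Myc itself (ENSRNOG00000004500) had the largest fitted rise of any tested member in both stretch comparisons. In animals 1 to 5 it measured 65.4, 288, 213, 50.8 and 86.9 CPM in S and 40.2, 48.3, 57.1, 45.9 and 53.7 CPM in NS. With inhibitor, it measured 55.6, 263, 228, 72.4 and 60.0 CPM in S_PI and 38.6, 30.8, 41.1, 39.9 and 27.5 CPM in NS_PI. The stretched libraries of animals 2 and 3 stood far above the other stretched libraries, while the unstretched libraries lay close together. All 5 animals were higher with stretch in both comparisons; S and NS overlapped, through animal 4, and S_PI and NS_PI did not overlap. The mean was 141 ± 104 CPM in S and 49.0 ± 6.61 CPM in NS, and 136 ± 101 CPM in S_PI and 35.6 ± 6.06 CPM in NS_PI (SD, n = 5 each). The fitted log2 change was 1.27 (SE 0.32, adjusted p = 0.00727) in S over NS and 1.64 (SE 0.33, adjusted p = 0.000969) in S_PI over NS_PI. Within animals, on the log2(CPM + 1) scale, the change of Myc in S over NS spanned 0.14 in animal 4 to 2.55 in animal 2.

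The E-box sequence was looked up in the promoters of the members, in RefSeq windows from 250 bases before to 50 bases after the annotated start (assembly GRCr8). CACGTG reads the same on both strands, so 1 search covers both. It was present in 18 of the 50 member promoters with an entry (36%), in 2148 of all 33469 RefSeq promoters of this length (6.42%), and in 639 of 6723 promoters of tested genes (9.50%). Among the 50 are the promoters of 5 members whose levels were not tested, of which those of Tsr1, Rrp12 and Ebna1bp2 hold it. It was in 5 of 15 promoters of members that rose in S over NS and in 9 of 29 promoters of members not called. Of the promoters of members that rose in S_PI over NS_PI it was in 4 of 20, and of those of members not called in 11 of 25. Myc, Bop1, Wdr43, Rrs1 and Gnl2 had no entry. The 300 bases of Gnl3 (chr16:6219733-6220032, minus strand), the member with the largest rise after Myc in S_PI over NS_PI, and of Ltv1 (chr1:9398508-9398807, minus strand), the member that fell in S over NS, are shown whole because both hold the motif. Capitals mark CACGTG, which begins 25 bases before the start in Gnl3 and 61 bases before it in Ltv1.
Gnl3: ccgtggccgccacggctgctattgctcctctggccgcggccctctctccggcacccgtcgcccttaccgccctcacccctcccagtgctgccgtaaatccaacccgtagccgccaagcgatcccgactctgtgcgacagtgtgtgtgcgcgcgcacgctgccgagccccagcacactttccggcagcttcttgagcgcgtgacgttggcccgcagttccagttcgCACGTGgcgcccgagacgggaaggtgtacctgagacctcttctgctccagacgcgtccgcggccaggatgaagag
Ltv1: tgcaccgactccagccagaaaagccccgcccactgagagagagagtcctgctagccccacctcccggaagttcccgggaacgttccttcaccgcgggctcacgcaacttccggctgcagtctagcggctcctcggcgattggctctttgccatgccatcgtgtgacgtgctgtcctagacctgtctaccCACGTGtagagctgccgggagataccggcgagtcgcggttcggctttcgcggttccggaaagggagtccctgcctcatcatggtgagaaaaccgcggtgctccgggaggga

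The motif with its flanking bases is given for the other members that rose in S over NS and hold it. It lies 173 bases before the start in Srm, 13 bases before it in Ddx18 and 22 bases after it in Fbl. Mybbp1a holds it at 156 bases and at 1 base before the start.
Srm: ccctcggcccCACGTGgcccggcagc
Ddx18: cggaactgcgCACGTGcatctgtcgc
Fbl: cgcttttttcCACGTGtgaaagcctg
Mybbp1a, far: agtttctacaCACGTGtgcgagcaca
Mybbp1a, near: ctttcgagccCACGTGtttggttcag
The flanks differ among these promoters. A match is a description of the letters in this window and does not show binding.

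In the group of genes for nucleolar proteins with several roles, 6 genes were tested, of which 4 rose in S over NS (Gnl3, Nolc1, Ncl and Mybbp1a) and all 6 rose in S_PI over NS_PI, where Aatf and Npm1 were called as well. These are 66.7% and 100% of the group, beside 24.9% and 30.5% of all tested genes. The role groups were drawn with earlier results of these data known, so the shares called by role are descriptive only. Gnl3 (ENSRNOG00000028461), which encodes the GTP-binding protein nucleostemin, measured 77.4, 43.5, 55.6, 21.4 and 43.1 CPM in S and 28.6, 16.8, 26.0, 26.5 and 21.7 CPM in NS. It measured 85.9, 50.03, 62.4, 28.2 and 40.2 CPM in S_PI and 29.8, 14.2, 18.5, 21.8 and 10.4 CPM in NS_PI. Animal 4 was the exception in S over NS, where Gnl3 was lower in its stretched library. The fitted log2 change of Gnl3 was 0.98 (SE 0.22, adjusted p = 0.00335) in S over NS and 1.46 (SE 0.23, adjusted p = 9.01e-05) in S_PI over NS_PI. Nolc1, a chaperone of snoRNPs (ENSRNOG00000018704), measured 290.2, 273, 195, 193 and 204 CPM in S and 101, 137, 142, 124 and 134 CPM in NS. It measured 216, 215, 173, 168 and 221 CPM in S_PI and 103, 98.4, 97.0, 111 and 126 CPM in NS_PI. Its stretched and unstretched libraries did not overlap in either comparison. Its log2 change was 0.85 (SE 0.14, adjusted p = 0.000316) in S over NS and 0.89 (SE 0.14, adjusted p = 0.000135) in S_PI over NS_PI.

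Ncl (ENSRNOG00000018273), which encodes nucleolin, an RNA-binding protein of the nucleolus, rose in both stretch comparisons, but animal 1 carried much of the change in S over NS. It measured 2883, 471, 478, 401 and 554 CPM in S and 1006, 347, 406, 482 and 291 CPM in NS. It measured 1621, 486, 473, 540.5 and 498 CPM in S_PI and 722, 385, 219.9, 306 and 365 CPM in NS_PI. Animal 1 was the highest of the 5 in every group, and the groups overlapped in both comparisons. The log2 change was 0.60 (SE 0.21, adjusted p = 0.0377) in S over NS, and 0.34 (adjusted p = 0.159) without animal 1. The call was also lost without animal 2 (adjusted p = 0.0595) and without animal 5 (adjusted p = 0.123). With inhibitor, Ncl had a log2 change of 0.74 (SE 0.21, adjusted p = 0.00953) in S_PI over NS_PI, with the call lost without animal 3 (adjusted p = 0.0539).

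Npm1 (ENSRNOG00000004616), which encodes the histone and ribosome chaperone nucleophosmin, measured 897, 748, 823, 555 and 758 CPM in S and 783, 609, 562, 735 and 585 CPM in NS. The groups overlapped, and the log2 change was 0.21 with a 95% confidence interval from -0.08 to 0.50 (adjusted p = 0.276). It measured 1300.1, 666, 744, 681 and 707 CPM in S_PI and 761, 541, 475, 553 and 501 CPM in NS_PI, higher with stretch in 5 of 5 animals. The log2 change there was 0.51 (SE 0.14, adjusted p = 0.00795). The difference between its stretch effects was 0.30 (95% confidence interval -0.10 to 0.70) and was not called. Mybbp1a, a nucleolar protein that binds RNA polymerase I, rose by 0.48 (adjusted p = 0.0315) in S over NS, a call lost without animal 2, 4 or 5 (adjusted p 0.0509 to 0.145), and by 0.60 (adjusted p = 0.00715) in S_PI over NS_PI. Aatf, a factor of small subunit processing, had a log2 change of 0.27 in S over NS, not called, and rose by 0.58 (adjusted p = 0.0118) in S_PI over NS_PI. The Aatf call was lost without animal 1, 2 or 5 (adjusted p 0.0527 to 0.0600).

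**Figure D2:**
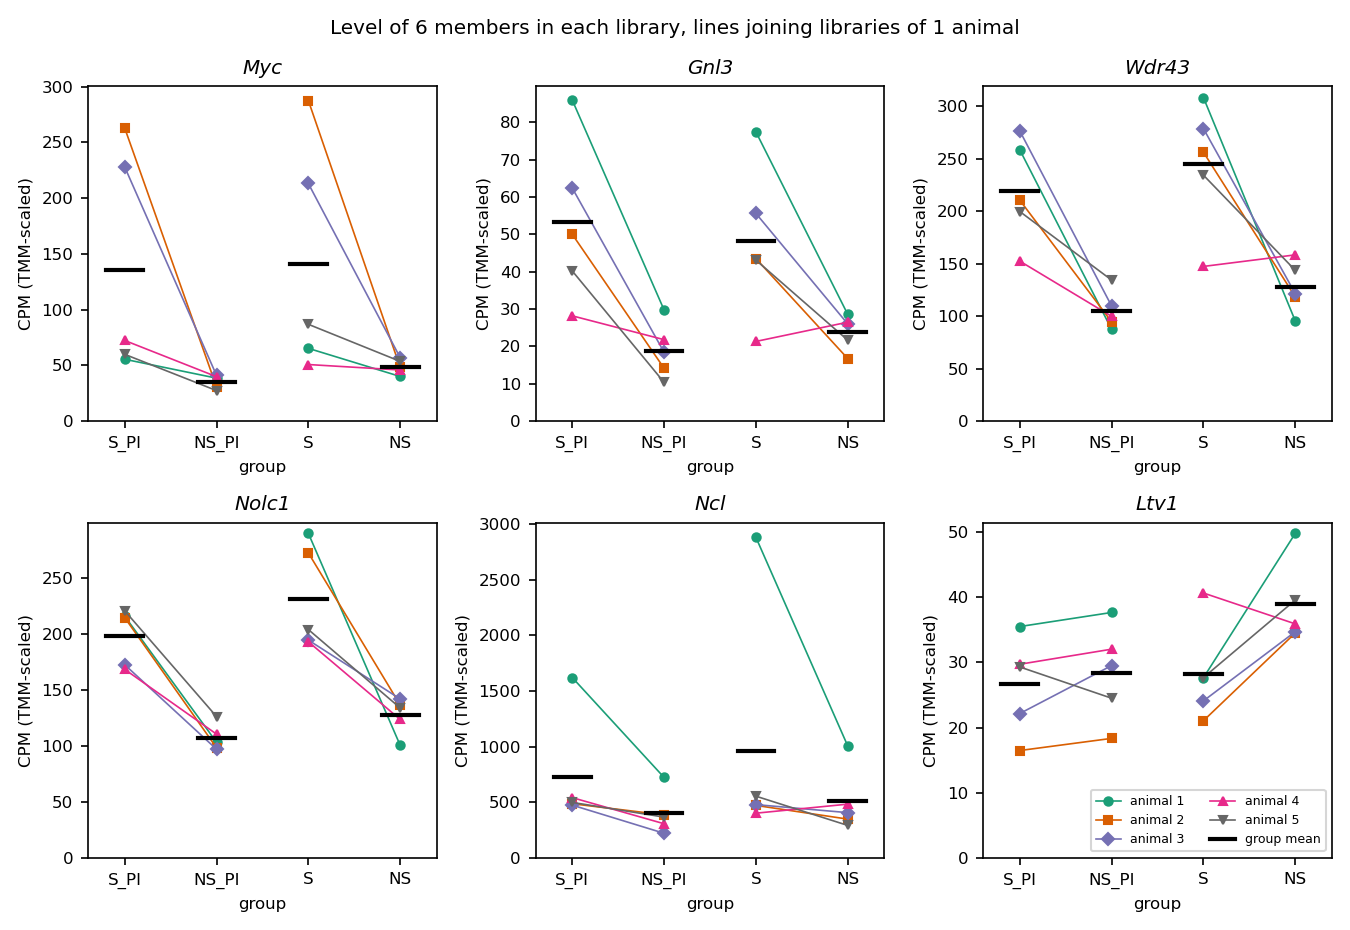
Level in CPM (y axis, linear, from 0) of Myc, Gnl3, Wdr43, Nolc1, Ncl and Ltv1 in each of the 20 libraries, by group (x axis), with lines joining the stretched and unstretched library of each animal and black bars for group means. Myc is highest in the stretched libraries of animals 2 and 3, while Ncl is highest in those of animal 1.

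Of 5 tested RNA polymerase I subunits and factors, 1 rose in each stretch comparison, Polr1e in S over NS and Polr1b in S_PI over NS_PI. That is 20% of the group, beside 24.9% of all tested genes called in S over NS and 30.5% in S_PI over NS_PI. Polr1e, a subunit of the initiating enzyme, measured 13.6, 7.49, 4.94, 9.15 and 6.44 CPM in S and 3.69, 3.95, 2.48, 5.89 and 2.17 CPM in NS. These levels are close to the detection floor, all 5 animals were higher in S, and the groups overlapped. The log2 change was 1.17 (SE 0.37, adjusted p = 0.0261) in S over NS and 0.95 (SE 0.37, adjusted p = 0.0539) in S_PI over NS_PI. Polr1b, the second-largest subunit, rose by 0.76 (SE 0.24, adjusted p = 0.0226) in S_PI over NS_PI, and its log2 change in S over NS was 0.37 (adjusted p = 0.265). Neither call held for each animal left out: that of Polr1e was lost without animal 1, 2 or 5 (adjusted p 0.0593 to 0.123) and that of Polr1b without animal 2, 3 or 5 (adjusted p 0.0689 to 0.116). Polr1a, the catalytic subunit, Polr1c, which RNA polymerases I and III share, and Ubtf, which binds the ribosomal DNA promoter, were not called in either comparison, with log2 changes between -0.05 and 0.41.

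Among the snoRNP proteins, Nop56 had the largest rise in both stretch comparisons. Of 7 tested genes, 3 rose in S over NS (Nop56, Gar1 and Fbl) and 4 rose in S_PI over NS_PI (Nop56, Nop58, Gar1 and Rrp9). These are 42.9% and 57.1% of the group, beside 24.9% and 30.5% of all tested genes. Nop56, a scaffold of box C/D particles, measured 63.4, 30.0, 40.8, 49.8 and 37.3 CPM in S and 21.7, 17.8, 34.1, 36.5 and 19.0 CPM in NS. It measured 52.1, 39.7, 34.4, 36.6 and 27.9 CPM in S_PI and 14.9, 17.9, 15.8, 20.4 and 20.1 CPM in NS_PI. Every animal was higher with stretch in both comparisons, and S_PI and NS_PI did not overlap. The log2 change of Nop56 was 0.78 (SE 0.21, adjusted p = 0.0102) in S over NS and 1.10 (SE 0.22, adjusted p = 0.000873) in S_PI over NS_PI. Its partner Nop58 measured 606, 267, 295, 221 and 365 CPM in S and 228, 259, 194, 234 and 241 CPM in NS. It measured 615, 241, 244, 281 and 320.4 CPM in S_PI and 161, 171, 137, 184 and 131 CPM in NS_PI, with no overlap between these groups. The log2 change of Nop58 was 1.02 (SE 0.20, adjusted p = 0.000694) in S_PI over NS_PI and 0.52 (SE 0.20, adjusted p = 0.0548) in S over NS, where it was not called.

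Fbl (ENSRNOG00000019229), the methyltransferase fibrillarin, was the most abundant member, with a mean of 763 CPM over the 20 libraries, ahead of Npm1 at 699 CPM and Ncl at 647 CPM. It measured 853, 911, 912, 977 and 745 CPM in S and 432, 533, 742, 847 and 814 CPM in NS. It measured 609, 885, 857, 923 and 990.5 CPM in S_PI and 679, 529.8, 572, 706 and 749 CPM in NS_PI. The groups overlapped in both comparisons, and 4 of 5 animals were higher with stretch in each. The log2 change was 0.42 (SE 0.15, adjusted p = 0.0474) in S over NS and 0.39 (SE 0.15, adjusted p = 0.0605) in S_PI over NS_PI. The call in S over NS was lost without animal 1, 2, 3 or 4 (adjusted p 0.0722 to 0.163). Gar1, of the box H/ACA particles that guide pseudouridylation, measured 127 to 161 CPM in S and 58.6 to 124 CPM in NS, and 125 to 157 CPM in S_PI and 66.1 to 86.9 CPM in NS_PI. Neither pair of groups overlapped for Gar1, which rose by 0.58 (adjusted p = 0.0105) in S over NS and by 0.86 (adjusted p = 0.000419) in S_PI over NS_PI. Rrp9, which binds the U3 snoRNA, rose by 0.80 (adjusted p = 0.0313) in S_PI over NS_PI and had a log2 change of 0.05 in S over NS. Its call was lost without animal 1, 2, 4 or 5 (adjusted p 0.0626 to 0.129). Dkc1, the pseudouridine synthase of these particles, and Nop10 were not called, with log2 changes from 0.07 to 0.42.

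Of 15 tested factors of small subunit processing, 3 rose (Wdr43, Utp15 and Nop14) and 1 fell (Ltv1) in S over NS, and 5 rose in S_PI over NS_PI (the same 3 with Ddx10 and Imp4). The shares called, 26.7% and 33.3%, lie near the 24.9% and 30.5% of all tested genes. Wdr43 (ENSRNOG00000026316), of the complex that loads early onto the nascent precursor, measured 308, 256, 279, 147 and 234 CPM in S and 95.5, 118, 122, 158 and 144 CPM in NS. It measured 258, 210.5, 276, 152 and 199.7 CPM in S_PI and 87.5, 94.6, 109.7, 99.9 and 134 CPM in NS_PI. Animal 4 was lower in S than in NS for Wdr43, and S_PI and NS_PI did not overlap. The log2 change was 0.92 (SE 0.19, adjusted p = 0.00146) in S over NS and 1.06 (SE 0.19, adjusted p = 0.000309) in S_PI over NS_PI. Utp15, of the same early complex, rose by 0.74 (SE 0.22, adjusted p = 0.0199) in S over NS and by 1.00 (SE 0.24, adjusted p = 0.0035) in S_PI over NS_PI. Heatr1, a large protein of that complex, lay near the detection floor at 3.02 to 8.13 CPM in S and 0.493 to 4.71 CPM in NS, and its log2 changes of 0.97 and 0.94 were not called.

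Ltv1 (ENSRNOG00000015217), an assembly factor that leaves the small subunit late, was the member called lower. It measured 27.7, 21.1, 24.1, 40.7 and 27.7 CPM in S and 49.8, 34.5, 34.7, 35.9 and 39.6 CPM in NS. It measured 35.5, 16.5, 22.2, 29.7 and 29.3 CPM in S_PI and 37.7, 18.3, 29.5, 32.0 and 24.5 CPM in NS_PI. NS was thus the group with the highest level, S overlapped it through animal 4, and the other 3 groups covered a similar range. The log2 change was -0.50 (SE 0.17, adjusted p = 0.0341) in S over NS and -0.10 (95% confidence interval -0.46 to 0.26) in S_PI over NS_PI. The call was lost without animal 1, 2, 3 or 5 (adjusted p 0.107 to 0.127). Other losses in this group were those of Utp15 without animal 2, 3 or 4 (adjusted p 0.0523 to 0.120) and Nop14 without animal 1, 3 or 5 (adjusted p 0.0908 to 0.170), both in S over NS; the log2 change of Nop14 was 0.31 without animal 1. Imp4 was lost in S_PI over NS_PI without animal 1, 2, 3 or 4 (adjusted p 0.0673 to 0.184).

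Nop14, a scaffold of the small subunit precursor, rose by 0.50 (adjusted p = 0.0399) in S over NS and by 0.68 (adjusted p = 0.0064) in S_PI over NS_PI. The helicase Ddx10 rose by 0.56 (adjusted p = 0.00363) in S_PI over NS_PI. Imp4, of the U3-associated trio it forms with Imp3 and Mphosph10, rose by 0.47 (adjusted p = 0.0471) there. Its partner Imp3 had negative log2 changes of -0.42 in S over NS and -0.25 in S_PI over NS_PI, neither called, with lower values in 5 of 5 animals in S. Imp3 was called lower in S over NS with upper-quartile scaling (-0.48, adjusted p = 0.0472) and with library size alone (-0.52, adjusted p = 0.0353). The methyltransferase Emg1 had log2 changes of -0.76 in S over NS (95% confidence interval -1.44 to -0.09) and -0.24 in S_PI over NS_PI, neither called. Utp20, Wdr75, Noc4l, Mphosph10, Bysl and Nob1, the endonuclease that makes the final cut of 18S rRNA, were not called in either comparison, with log2 changes between -0.16 and 0.43.

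In the large subunit group of 13 tested genes, 4 rose in S over NS (Wdr12, Nip7, Bop1 and Ddx18) and 5 rose in S_PI over NS_PI (the same 4 with Noc2l). The shares called, 30.8% and 38.5%, lie not far above the 24.9% and 30.5% of all tested genes. Bop1, Pes1 and Wdr12 form one complex needed for the 28S and 5.8S rRNA. Wdr12 measured 51.8, 38.5, 44.5, 37.6 and 39.3 CPM in S and 26.3, 22.2, 31.0, 28.9 and 16.3 CPM in NS. It measured 52.7, 36.6, 33.8, 39.6 and 38.2 CPM in S_PI and 22.8, 29.6, 28.5, 22.3 and 18.6 CPM in NS_PI, and neither pair of groups overlapped. The log2 change of Wdr12 was 0.78 (SE 0.17, adjusted p = 0.00299) in S over NS and 0.72 (SE 0.17, adjusted p = 0.00415) in S_PI over NS_PI. Bop1 rose by 0.59 (adjusted p = 0.0319) in S over NS and by 0.65 (adjusted p = 0.022) in S_PI over NS_PI. Pes1 measured 74.2 to 102 CPM in S and 59.1 to 69.5 CPM in NS, without overlap. Its log2 change of 0.34 (95% confidence interval 0.07 to 0.61, adjusted p = 0.0573) was nevertheless not called, and neither was that of 0.34 in S_PI over NS_PI.

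Nip7, a factor of precursor processing, measured 56.8 to 106 CPM in S and 40.2 to 73.2 CPM in NS, and 72.3 to 106 CPM in S_PI and 39.1 to 56.7 CPM in NS_PI. It rose by 0.62 (adjusted p = 0.00828) in S over NS, a call lost without animal 2 (adjusted p = 0.0524), and by 0.82 (adjusted p = 0.000835) in S_PI over NS_PI. The helicase Ddx18 rose by 0.53 (adjusted p = 0.0238) in S over NS and by 0.67 (adjusted p = 0.00527) in S_PI over NS_PI. Noc2l rose by 0.73 (adjusted p = 0.0125) in S_PI over NS_PI. In S over NS, Bop1 was lost without animal 1, 2, 4 or 5 (adjusted p 0.0511 to 0.102) and Ddx18 without animal 1, 2 or 3 (adjusted p 0.0613 to 0.122), the log2 change of Ddx18 being 0.34 without animal 1. In S_PI over NS_PI, Bop1 was lost without animal 3, 4 or 5 (adjusted p 0.0521 to 0.0941) and Noc2l without animal 3, 4 or 5 (adjusted p 0.0527 to 0.0890). Nop2, Nop16, Rrp1, Rrs1, Gnl2, Gtpbp4 and Noc3l were not called, with log2 changes from -0.34 to 0.37 in S over NS and from -0.01 to 0.47 in S_PI over NS_PI.

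Ddx21, a helicase known to link RNA polymerase I transcription with processing, measured 57.8, 47.5, 43.9, 31.5 and 29.6 CPM in S and 27.2, 18.7, 31.0, 32.4 and 27.7 CPM in NS. It measured 47.0, 37.8, 48.4, 30.5 and 53.2 CPM in S_PI and 18.1, 17.1, 23.7, 24.2 and 22.3 CPM in NS_PI. S and NS overlapped, and S_PI and NS_PI did not. The log2 change was 0.65 (SE 0.20, adjusted p = 0.0228) in S over NS, lost without animal 1, 2 or 3 (adjusted p 0.0578 to 0.146), and 1.04 (SE 0.21, adjusted p = 0.000815) in S_PI over NS_PI.

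The polyamine enzymes of the list differed from each other. Srm, spermidine synthase, measured 19.1, 17.8, 13.6, 11.2 and 20.0 CPM in S and 10.6, 8.39, 7.44, 11.2 and 10.3 CPM in NS. Its log2 change was 0.81 (SE 0.26, adjusted p = 0.0258) in S over NS, lost without animal 2, 3 or 5 (adjusted p 0.0650 to 0.0954), and 0.61 (SE 0.26, adjusted p = 0.0778) in S_PI over NS_PI. The authors' table pairs Srm, Nhp2 and Ebna1bp2 with 2 gene identifiers each, so their counts are uncertain. Odc1 (ENSRNOG00000005424), ornithine decarboxylase, the first enzyme of polyamine synthesis and a much used Myc target, measured 401, 247, 261, 169 and 299 CPM in S and 222, 235, 249, 282 and 325 CPM in NS. The groups overlapped, with 3 of 5 animals higher in S. Its log2 change was 0.05 (95% confidence interval -0.29 to 0.40) in S over NS and -0.10 (95% confidence interval -0.45 to 0.24) in S_PI over NS_PI, and it turned to -0.05 in S over NS with scaling by library size and to -0.15 without animal 1.

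Animals differed in how far the members moved, and the size of the Myc change did not order the animals as the members did. In S over NS, the median within-animal log2 change (CPM + 1) of the 50 tested members was 0.65 in animal 1, 0.44 in animal 2, 0.19 in animal 3, 0.10 in animal 4 and 0.18 in animal 5. The log2 change of Myc in the same animals was 0.69, 2.55, 1.88, 0.14 and 0.68. Animal 1 thus had the largest median of the members with a Myc change well under those of animals 2 and 3, and animal 4 had the smallest of both. The member medians in S_PI over NS_PI were 0.77, 0.46, 0.44, 0.31 and 0.47 and the Myc changes 0.51, 3.05, 2.44, 0.84 and 1.10 in animals 1 to 5. With 5 animals no correlation was computed. Of the 50 tested members, 13 were higher in S in all 5 animals, where 12.9% of all tested genes were. Of the same 50, 23 were higher in S_PI in all 5 animals, where 18.2% of all tested genes were. Imp3 was the 1 member lower in S in all 5 animals, where 14.2% of all tested genes were, and 0 members were lower in S_PI in all 5, where 18.1% were. The groups did not overlap for 4 of the 50 tested members in S over NS (Nolc1, Wdr12, Gar1 and Pes1, all higher). That share is near the 7.34% of all tested genes whose groups did not overlap. In S_PI over NS_PI, 12 of the 50 did not overlap, all higher, where 13.8% of all tested genes did not.

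**Figure D3:**
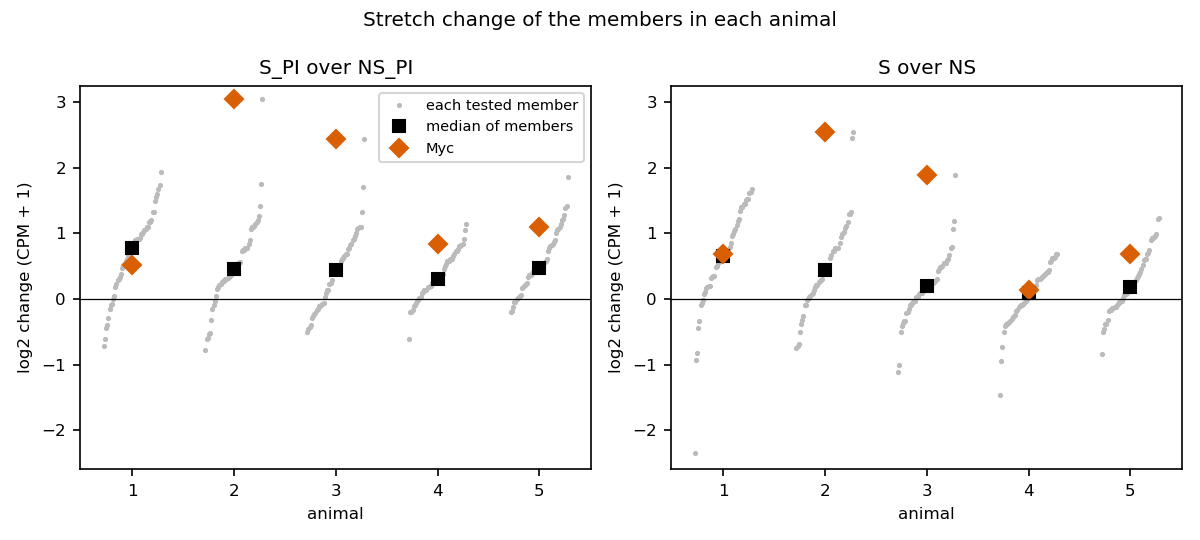
Log2 change in CPM within each animal (y axis) for the 5 animals (x axis) in S_PI over NS_PI and S over NS, with each tested member as a grey point, their median as a black square and Myc again as an orange diamond. Myc moves most in animals 2 and 3, and the member median is highest in animal 1.

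The inhibitor comparisons asked whether the levels differed with GSK2606414 at the same mechanical condition. In NS_PI over NS, 0 members and 0.0% of all tested genes were called by edgeR, and DESeq2 called 0 members and 5 genes. Most fitted values of the tested members were below 0: their median log2 change was -0.24, beside -0.00 over all tested genes, and 42 of 50 were negative. At an unadjusted p below 0.05 there were 8 members, all lower, and 455 of all tested genes (5.47%). In 9 members all 5 animals were lower in NS_PI, where 6.2% of all tested genes were, and in 0 members were all 5 higher, where 5.22% of all tested genes were. Nop58, with the levels given above, was the 1 member without overlap between NS_PI and NS, where 0.709% of all tested genes did not overlap. Its log2 change was -0.56 (SE 0.20, unadjusted p = 0.0104, adjusted p = 0.866). Fitted with only the NS_PI and NS libraries, Nop58 was called lower (log2 change -0.55, edgeR adjusted p = 0.0277).

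Other members near this end in NS_PI over NS were Rrs1 (-0.53), Rrp9 (-0.53), Nop56 (-0.51), Utp15 (-0.48) and Ltv1 (-0.47), on the log2 scale and none of them called. Rrs1, which helps to bring the 5S RNP into the large subunit, measured 70.3, 70.0, 77.0, 91.0 and 71.3 CPM in NS_PI and 61.8, 102, 137, 144 and 114 CPM in NS, so animal 1 went the other way. Myc had a log2 change of -0.44 (95% confidence interval -1.14 to 0.26), Ncl of -0.30 (-0.73 to 0.13), Npm1 of -0.22 (-0.51 to 0.06), Fbl of -0.03 (-0.35 to 0.29), Odc1 of -0.02 (-0.36 to 0.32) and Srm of 0.12 (-0.43 to 0.68). In S_PI over S, edgeR called 0 members and 0.0% of all tested genes, and DESeq2 called 0 of either. The median of the tested members was -0.05, beside -0.01 over all tested genes. At an unadjusted p below 0.05 there were 1 member, Rrs1 with a log2 change of -0.43, and 340 of all tested genes. In 0 members were all 5 animals higher in S_PI than in S, where 3.82% of all tested genes were, and in 1 member, Mphosph10, were all 5 lower, where 3.98% were. Myc had a log2 change of -0.07 in S_PI over S (95% confidence interval -0.70 to 0.55), Ncl of -0.16, Npm1 of 0.08, Fbl of -0.07, Odc1 of -0.17 and Srm of -0.08, none called.

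The stretch effect with inhibitor minus the stretch effect with vehicle tests directly whether the stretch response differed with GSK2606414. PERK activity itself is not measured here. The edgeR test called 0 members and 0.0% of all tested genes, DESeq2 called 0 of either, and at an unadjusted p below 0.05 there were 0 members and 345 genes. The median difference of the tested members was 0.16, beside 0.00 over all tested genes, and 38 of 50 were positive. It uses the same NS_PI and NS libraries as the inhibitor comparison above, so these values are not separate evidence. The largest difference was that of Rrp9 at 0.75 (95% confidence interval -0.05 to 1.55), and that of Myc was 0.37 (95% confidence interval -0.57 to 1.31). These intervals are wide. That of Myc extends upward just past the size of its stretch effect in S over NS (1.27), and downward to -0.57, short of a loss of that size. A rise called in one stretch comparison and not in the other, as for Npm1, Nop58, Rrp9, Polr1b and Polr1e, was therefore not shown to differ between them.

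**Figure D4:**
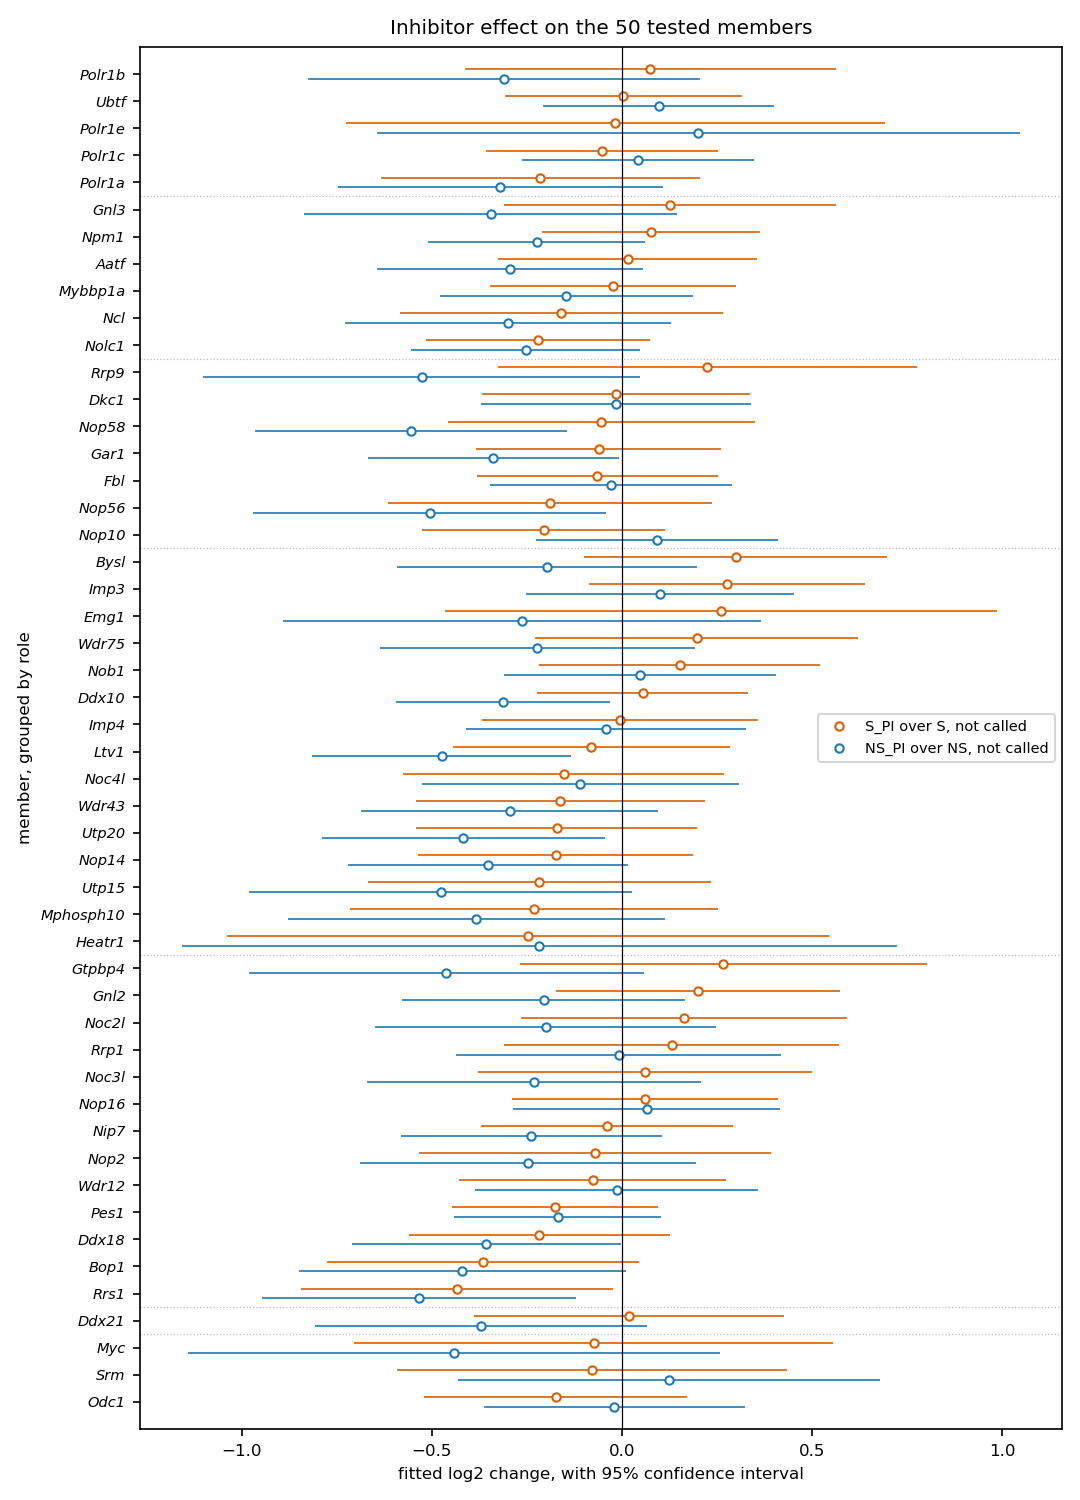
Fitted log2 change with the inhibitor (x axis) for each of the 50 tested members (y axis, grouped by role), orange for S_PI over S and blue for NS_PI over NS, with 95% confidence intervals. All points are open because no member was called, and the blue points lie mostly left of 0.

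Genes of the same pathways outside the 55 symbols were counted in the same tests. Among 76 further ribosome biogenesis factors tested, 15 rose and 2 fell in S over NS (median log2 change 0.20), led by Wdr46 at 0.89, Lsg1 at -0.86 and the kinase Riok3 at 0.85. Of the same 76, 19 rose and 1 fell in S_PI over NS_PI (median 0.15), led by Riok3 at 1.04, Riok1 at 1.02 and Utp18 at 0.95. The shares called among these 76 were 22.4% and 26.3%, beside 24.9% and 30.5% of all tested genes. Among 32 further growth genes described as Myc targets, 11 rose and 0 fell in S over NS (median 0.35), including Ppat, the first enzyme of purine synthesis, at 1.03, Pa2g4 at 0.83 and the amino acid transporter subunit Slc3a2 at 0.79. Of these 32, 12 rose and 2 fell in S_PI over NS_PI (median 0.36), including Slc3a2 at 1.22, Shmt2 of one-carbon metabolism at 1.17 and the cell cycle phosphatase Cdc25a at 1.07. The shares called of the growth genes were 34.4% in S over NS and 43.8% in S_PI over NS_PI. Of 12 further polyamine genes, 4 rose and 0 fell in S over NS, among them spermine oxidase Smox at 1.40, Amd1, which supplies the aminopropyl donor, at 0.81, and Sat1 at 0.57. Of these 12, 4 rose and 1 fell in S_PI over NS_PI, with Smox at 1.22, Amd1 at 0.90 and Paox at -0.79, so that 33.3% and 41.7% of the polyamine genes were called.

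Other lists were mixed in direction. Of 29 further subunits and factors of RNA polymerases I and III, 3 rose and 2 fell in S over NS, with Taf1b at -1.22, Taf1d at 1.13 and Polr3f at -0.93. In S_PI over NS_PI, 2 rose and 6 fell, with Taf1d at 1.43, Polr3f at -1.21 and Cd3eap at 0.77, and the shares called were 17.2% and 27.6%. Of 11 exosome and trimming genes, 2 rose and 1 fell in S over NS (Exosc9 at -0.92, Dis3 at 0.86 and Exosc5 at 0.54), and 1 rose and 4 fell in S_PI over NS_PI (among them Exosc4 at -0.87, Dis3 at 0.81 and Exosc9 at -0.68), which is 27.3% and 45.5% called. Of 12 genes of the wider Myc network, 3 rose and 2 fell in S over NS and 1 rose and 1 fell in S_PI over NS_PI, which is 41.7% and 16.7% called. Mycn, a paralogue of Myc, fell by 1.03 in S over NS (adjusted p = 0.0494, close to the cut-off), with 3 of 5 animals lower. In S_PI over NS_PI Mycn fell by 1.16 (adjusted p = 0.0265), with 4 of 5 animals lower. For genes outside the members, how each call depends on the processing was not examined. Zbtb17, a zinc finger partner of Myc, rose by 0.80 and the Max partner Mxi1 fell by 0.58 in S over NS, and Mnt, another Max partner, rose by 0.42 in S_PI over NS_PI.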

How the data were processed

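The authors aligned reads to rn6 with STAR and obtained gene counts from HTSeq, per the submitters' processing notes, with versions, annotation and strand setting not given in the sources used here. Raw counts were deposited for 20 libraries, together with the output of a DESeq2 run whose name says that it controlled for rat, with per the file headers a mean of normalized counts (a score here), a log2 fold change, a Wald statistic (a score) and p-values. Its header names no comparison or direction: of 50 matched members 7 had an adjusted p below 0.05 in the authors' deposited table, all with negative log2 fold changes, and all 7 were called higher in S here. Sizes were close for some members, such as Nolc1 at -0.82 there and 0.85 here, and Ltv1 at 0.42 there and -0.50 here. They were further apart for others, such as Polr1e at -0.86 there and 1.17 here. Some members called here had a deposited DESeq2 adjusted p above 0.05, such as Ltv1 (0.261) and Fbl (0.133). Such opposite signs are what a ratio of NS over S would give. HTSeq summary entries, which name no gene, were left out. Among them, records outside genes made up 16.2 to 24.5%, records aligned to several places 35.5 to 57.7% and ambiguous ones 0.0872 to 0.145% of all records.

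Counts were filtered with filterByExpr, scaled by TMM and fitted in edgeR 4.0.16 (quasi-likelihood test, R 4.3.3) with group and animal over all libraries (12 residual degrees of freedom), after the script was tested on simulated data. The model was fitted on all genes, with Benjamini-Hochberg adjustment over 8320. CPM use the same scaling; changes within an animal use a pseudocount of 1 CPM. Numbers in the titles mark the animal, which pairs libraries: deviations of same-animal libraries correlated at 0.316 or more (median 0.475), those of different animals at a median of -0.19, and for each of the 20 libraries the best match was a library of its own animal. P-values describe the spread left after the block takes out differences in level between animals. The floor of 3 counts covers counting error only. Members, roles and lists were chosen with earlier results of these data known. Named with values were Myc, Ncl, Npm1, Fbl, Odc1 and Srm, up to 8 called members per direction and comparison with the largest change, and up to 3 called genes of each further list; the remaining members are given by role. Alternatives were other scalings, DESeq2 1.42.0, no filter, no block, only the groups compared, and each animal left out.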

Additional observations from a re-analysis of the deposited data

Results flagged for a closer look

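The 112 sets examined held 5 libraries each (each named member in each group). In 16 sets 1 library lay far from the other 4, by a gap above 0.71 of the range of the set. About 1 in 20 would be flagged if values were independent and normally distributed. These sets share animals, and no chance rate was computed for them. Animal 1 was the high library in 11 of the 16 flagged sets. Ncl measured 2883 CPM in S of animal 1, beside 401 to 554 CPM in the others, 1006 CPM in NS of animal 1, beside 291 to 482 CPM, and 1621 CPM in S_PI of animal 1, beside 473 to 540.5 CPM. Npm1 measured 1300.1 CPM in S_PI of animal 1, beside 666 to 744 CPM, and 761 CPM in NS_PI of animal 1, beside 475 to 553 CPM. Nop58 measured 615 CPM in S_PI of animal 1, beside 241 to 320.4 CPM. Nop14 measured 285 CPM in S of animal 1, beside 72.2 to 130.1 CPM, and 204 CPM in S_PI of animal 1, beside 90.9 to 103 CPM.

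Aatf measured 39.7 CPM in S of animal 1, beside 26.0 to 29.6 CPM, and Bop1 measured 60.8 CPM there, beside 27.2 to 36.6 CPM. Noc2l measured 20.5 CPM in NS_PI of animal 1, beside 8.44 to 11.6 CPM. In animal 2, Bop1 was low in S_PI at 14.6 CPM, beside 31.3 to 33.2 CPM, Nip7 was high in S_PI at 106 CPM, beside 72.3 to 80.2 CPM, and Polr1b was high in S at 29.3 CPM, beside 14.1 to 18.3 CPM. Polr1e measured 7.38 CPM in NS_PI of animal 3, beside 2.79 to 3.75 CPM, and Rrp9 measured 14.7 CPM in NS of animal 4, beside 7.05 to 8.88 CPM. What sets these libraries apart was not tested.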

How the results depend on the processing

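Across the 12 alternatives, 6 members were called in S over NS under every one (Gnl3, Myc, Nolc1, Nop56, Wdr12 and Wdr43) and 14 in S_PI over NS_PI (these 6 with Ddx10, Ddx18, Ddx21, Gar1, Mybbp1a, Nip7, Nop58 and Utp15). Without the animal block, which ignores the pairing, 9 members rose and 0 fell in S over NS (818 of all genes called), and 15 rose in S_PI over NS_PI (1229 genes); all of these 9 and 15 were also called with the block, and no inhibitor or difference call changed. With only the groups compared, 8 members rose and 0 fell in S over NS (1048 genes); in NS_PI over NS, 1 member (Nop58, lower) and 27 genes were called. Members called lower in S over NS numbered 2 with upper-quartile scaling and 2 with library size alone (Ltv1 and Imp3), and 0 without the filter. All genes called in NS_PI over NS numbered 4 without the filter and 5 with DESeq2. Leaving out each animal in turn gave 9 to 15 members higher and 0 to 1 lower in S over NS (1418 to 1784 genes), 19 to 23 higher in S_PI over NS_PI (1839 to 2453 genes) and 0 to 3 genes in NS_PI over NS. Signs turned for values near 0: Odc1 in S over NS (-0.0022 with upper-quartile scaling, -0.052 with library size, lowest -0.15 and highest 0.23 with an animal left out), in S_PI over NS_PI (-0.21 to 0.029) and in NS_PI over NS (0.0034 with upper-quartile scaling, -0.031 to 0.038). In NS_PI over NS the ranges with an animal left out were -0.18 to 0.062 for Fbl and -0.027 to 0.31 for Srm. In S_PI over S they were -0.18 to 0.029 for Fbl, -0.28 to 0.055 for Ncl, -0.055 to 0.14 for Npm1, -0.20 to 0.060 for Srm and -0.15 to 0.0025 for Myc. In the difference of stretch effects they were -0.18 to 0.21 for Fbl, -0.50 to 0.0020 for Srm and -0.087 to 0.31 for Ncl, and without the block Fbl was 0.014 and Ncl -0.063. The cause of these shifts was not tested. Members near the floor of 3 counts, such as Heatr1 and Polr1e, are measured least precisely.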
